A study of Spirodela polyrhiza and Pistia stratiotes and Colocasia esculenta with 79 samples.

Results

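The stem of Pistia stratiotes was compared with the leaf blade by RNA sequencing, with 4 Stem libraries set against 8 blade libraries, 4 from the Basal and 4 from the Apical part of the leaf. These 12 libraries were chosen by their labels, out of 20 of Pistia and 79 in the whole series. The series covers dissected body regions of 2 duckweeds, Lemna minor and Spirodela polyrhiza, and of their larger relatives Pistia, the water lettuce, and Colocasia esculenta, taro. All Pistia plants were grown under fluorescent light, and the labels give neither a treatment nor a strain, clone or age for them. Polyadenylated RNA was extracted from every Pistia region with the same column kit. The labels name the pieces Stem, Basal and Apical and call the replicates biological, but do not say which tissues each piece held or whether pieces were pooled. P-values therefore measure the spread between these libraries.

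The stem of Pistia is a short, compressed axis that carries the rosette of leaves, the hanging roots and the stolons that bear daughter plants. It holds growing points and the vascular tissue that joins these organs. The blade is broad, spongy and hairy, and is the main site of photosynthesis. Leaf tissue in general devotes a large part of its messenger RNA to a few proteins of light capture and carbon fixation, whereas stems and growing points use a wider range of genes at moderate levels. The deposited identifiers are not paired with gene names, so no transcript below can be given a function, and the labelled tissues could not be checked against marker genes. For the same reason the lists of photosynthesis, meristem, cell division, vascular, root, epidermis and starch genes were not tested.

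Expression was given in TPM, a relative unit that corrects for transcript length and fixes the total of each library, here between 998999 and 999582 in the 12 libraries. How many reads lie behind a TPM value is not recorded, so single values come without a counting error. A fixed total also means that a few very abundant transcripts lower the values of all others. Results are therefore given as deposited and after median-of-ratios rescaling, which divides each library by the median ratio of its transcripts to their geometric mean over the libraries. The factors were 1.16 to 1.25 in Stem and 0.802 to 1.03 in the blade, the highest blade factor being that of Apical replicate 4. That library stood apart: its mean Pearson correlation with the other Apical libraries was 0.888, against 0.929 to 0.936 for the others. Stem libraries had a mean correlation of 0.955 with each other, 0.728 with Basal and 0.679 with Apical, on the log2(TPM + 1) scale across transcripts, which are not independent replicates.

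Stem RNA was spread over more transcripts than blade RNA. Transcripts that reached 1 TPM numbered 17297, 17376, 17482 and 17300 in the 4 Stem libraries, while the 8 blade libraries had a lowest value of 14327, a median of 15033.5 and a highest value of 15093. The groups did not overlap, with every Stem library above every blade library. The mean was 17364 ± 86.9 in Stem (SD, n = 4) and 14899 ± 268 in the blade (n = 8). After rescaling the means were 17135 ± 102 in Stem and 15130 ± 359 in the blade, so the excess in Stem was 2005 transcripts in place of 2465.

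The 10 most abundant transcripts together took a smaller part of the Stem libraries, while the single most abundant took 4.65% ± 0.616 of TPM in Stem (SD, n = 4) and 4.07% ± 0.363 in the blade (n = 8), a difference that did not pass (exact permutation p = 0.0768). Those 10 held 8.60%, 10.5%, 9.26% and 9.92% of TPM in Stem, and 11.9% at the lowest, 15.8% at the median and 16.9% at the highest in the blade. The lowest blade value was that of Apical replicate 4, and without it the blade ranged from 14.96% to 16.9%. The number of transcripts needed to reach 50% of TPM was 852, 739, 870 and 823 in Stem, against 294, 317.5 and 510 in the blade as lowest, median and highest. Again no Stem library overlapped the blade libraries, and Apical replicate 4 gave the highest blade value, the next being 355. In this measure Stem averaged 821 ± 58.0 (SD, n = 4) and the blade 343 ± 70.8 (n = 8), or 319 ± 23.4 in the 7 blade libraries without Apical replicate 4.

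For the 3 measures given per library (transcripts that reach 1 TPM, the share of the 10 most abundant, and the number that hold 50% of TPM) the exact permutation test, two-sided, gave p = 0.00404, which is also the adjusted value over the 3 and the lowest value that this number of libraries allows. With Basal and Apical of the same replicate number averaged, 4 Stem against 4 blade values gave an exact permutation p of 0.0286. Replicate numbers paired the libraries by the check described under processing, although Basal replicate 4 taken alone fell short of it. A permutation within the 4 pairs gave an exact p of 0.125. Both are the smallest values those arrangements allow. Petiole and Stolon libraries lay between Stem and the blade in the number of transcripts at 1 TPM and in the number that reach 50% of TPM, but had the lowest shares in their 10 most abundant, at 7.79% ± 0.679 and 8.33% ± 0.442 (SD, n = 4 each).

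**Figure D1:**
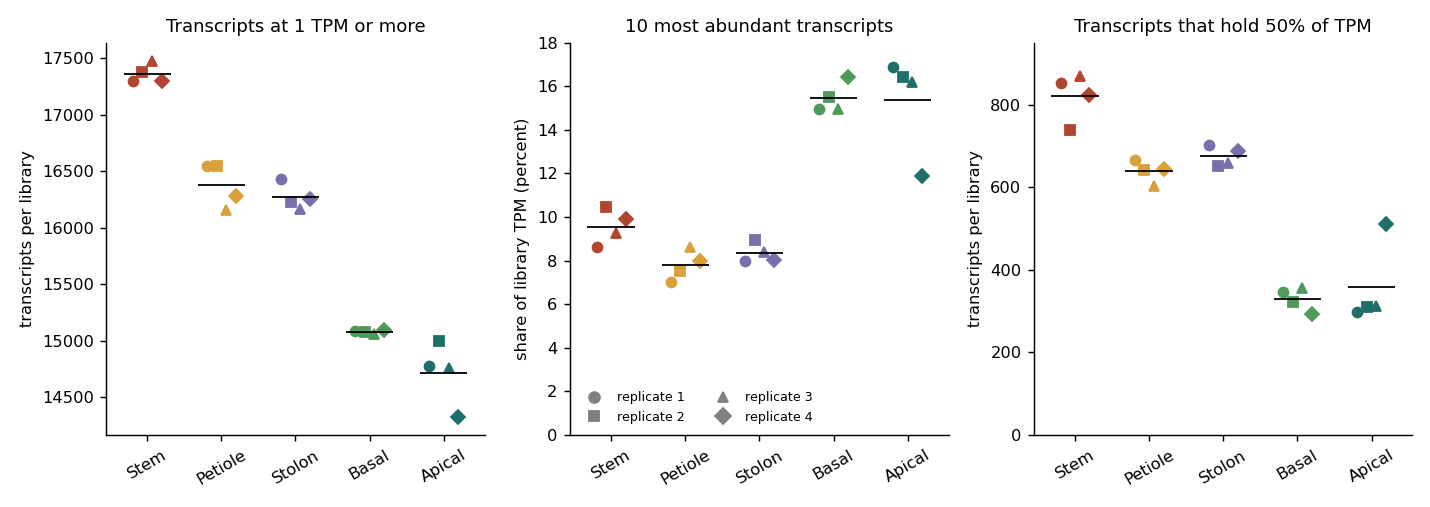
Each symbol is 1 Pistia library and each bar the mean of its region, for the count of transcripts that reach 1 TPM (left, axis not starting at 0), the percent of TPM in the 10 most abundant transcripts (middle) and the number of transcripts that hold 50% of TPM (right). Stem lies at 17297 to 17482 transcripts and the blade regions Basal and Apical at 14327 to 15093, with Apical replicate 4 (diamond) apart from the other Apical libraries in the middle and right panels.

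Most transcripts differed between stem and blade. In a limma fit on log2(TPM + 1), contrasting Stem with the mean of Basal and Apical, 12631 of 18727 tested transcripts were called at an adjusted p under 0.05, which is 67.4%. Of these, 9652 were higher in Stem (51.5% of those tested) and 2979 were lower (15.9%). After rescaling 11813 were called (63.1%), with 6927 higher (37%) and 4886 lower (26.1%). The share of calls that were higher in Stem was thus 76.4% as deposited and 58.6% rescaled. Rescaling moved the median log2 difference of all tested transcripts to 0.13, from 0.55 as deposited. In these bulk pieces, more cells of a type and more RNA per cell cannot be told apart.

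The calls that did not depend on the scale were counted directly. All 6927 transcripts called higher after rescaling were also called higher as deposited, where they made up 71.8% of the higher calls. Of the 2979 called lower as deposited, 2978 were also called lower after rescaling. Every Stem factor was above every blade factor, so rescaling moved the differences towards lower in Stem. This nesting of the calls follows largely from that and is no separate support for them. The scale decided 2696 transcripts that were called higher as deposited and not called after rescaling, and 1879 that were called lower after rescaling alone. A further 29 transcripts were called higher as deposited and lower after rescaling. In 7118 transcripts (38%) all 4 Stem libraries lay above all 8 blade libraries, and in 2011 (10.7%) all lay below. After rescaling these counts were 5420 (28.9%) and 3327 (17.8%).

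**Figure D2:**
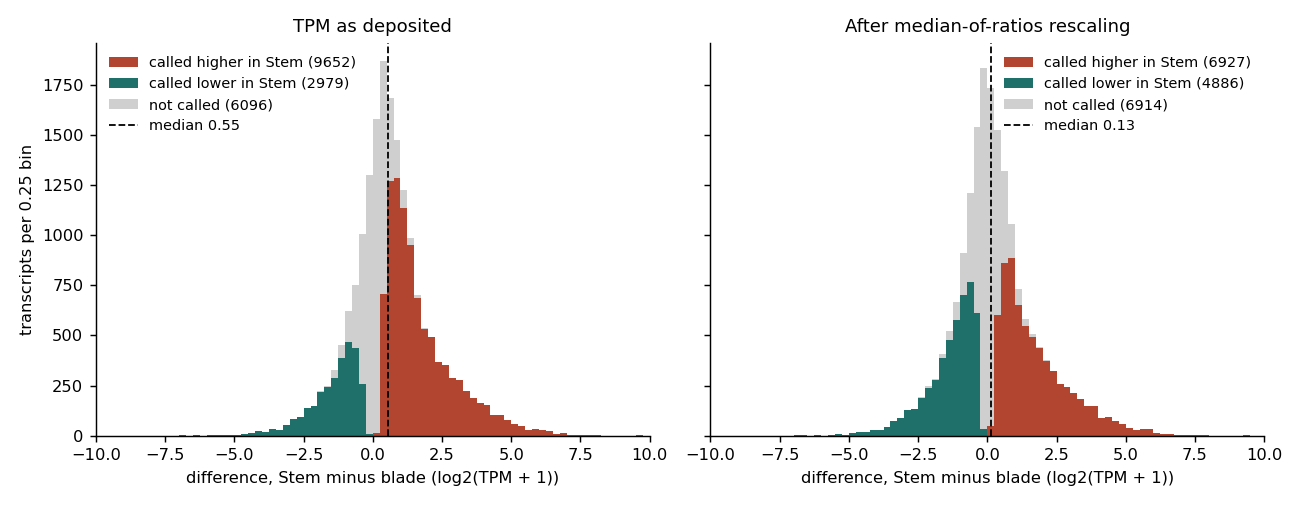
Number of transcripts by log2(TPM + 1) difference, Stem minus blade, in bins of 0.25, as deposited (left) and after median-of-ratios rescaling (right); colours mark transcripts called higher, called lower and not called, stacked. The median moves from 0.55 to 0.13 with rescaling, and the longer tail lies on the side higher in Stem on both scales.

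Large differences were more often towards the stem on both scales. Of the 18727 transcripts tested, 3071 were called higher in Stem and 672 lower with a log2 difference of at least 2. After rescaling there were 2398 higher and 1049 lower. Over calls of any size there were 9652 higher and 2979 lower, or 6927 and 4886 rescaled, so an imbalance was already present there. At a difference of at least 4 there were 716 higher and 76 lower (512 and 116 rescaled), and at a difference of at least 6 there were 103 higher and 11 lower (59 and 18 rescaled). The median difference was 1.35 among transcripts called higher and -1.20 among those called lower, beside 0.55 over all tested.

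The direction changed with the level of expression. At 1 to 10 TPM, as the mean over stem and blade, 51.6% of 6774 transcripts were called higher in Stem and 11.1% lower. In this class 40.7% were still higher and 16.9% lower after rescaling. The 945 with a mean under 1 TPM had 24.1% higher and 7.83% lower, or 18.7% and 9.63% rescaled. Among the 9262 transcripts with a mean of 10 to 100 TPM over stem and blade, 55.0% were called higher in Stem and 17.5% lower. After rescaling these shares were close to even, at 36.9% and 31.7%. Among the 1659 at 100 to 1000 TPM, 48.6% were higher and 29.0% lower as deposited, but after rescaling the majority turned, with 33.6% higher and 39.8% lower. The 87 transcripts at 1000 TPM or more had a majority lower in Stem on both scales, with 22 higher and 49 lower as deposited, and 13 and 54 after rescaling. The median log2 difference in this top class was -1.25, and -1.75 after rescaling. The number of transcripts averaging at least 1000 TPM was 77 in Stem and 106 in the blade, and 36 of them reached this level in both.

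As deposited, 5172 of the 18727 tested transcripts were called higher in Stem without overlap and with at least 10 TPM on average in the higher group. Pis15816.t1 had the largest log2 difference of these as deposited, while after rescaling another transcript was ahead of it by less than the SE, both at 9.36. Its values were 678, 844, 1118 and 982 TPM in Stem, while the blade had a lowest value of 0, a median of 0.0988 and a highest value of 0.205 TPM, with 3 of the 8 blade libraries listed at 0. The transcript was thus abundant in every Stem library and near the floor of the table in every blade library. The Stem mean was 906 ± 189 TPM (SD, n = 4). On the log2(TPM + 1) scale Stem exceeded the blade by 9.67 (SE 0.44, limma adjusted p = 1.1e-12), or by 9.36 after rescaling. With blade values this close to 0 the size depends on the pseudocount, and it was 12.28 with a pseudocount of 0.1. In Stem it ranked as the 92nd most abundant transcript. Petiole and Stolon held low levels of it, at 6.23 ± 8.02 TPM in Petiole and 19.1 ± 10.8 in Stolon (SD, n = 4 each), and the Petiole mean was carried by replicate 1 at 18.2 TPM.

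Pis01846.t1 had the largest gain in TPM and was the most abundant transcript of the stem. It stood at 38071, 52320, 46085 and 49384 TPM in Stem, and at 1657, 5157 and 7882 TPM as lowest, median and highest in the blade. Every Stem library was far above every blade library, and the lowest blade value was that of Apical replicate 4, the other Apical libraries having 4279 to 4660 TPM. This single transcript made up 4.65% of TPM in Stem, at 46465 ± 6149 TPM (SD, n = 4), against 0.541% in the blade, at 5412 ± 2066 TPM (n = 8). The means differed 8.59-fold, and Stem was higher by 3.22 on the log2 scale (SE 0.27, limma adjusted p = 3.6e-09), or 2.72 after rescaling. It was abundant in the blade as well, ranking 12th there. Within the leaf, Basal libraries averaged 7030 ± 960 TPM and Apical libraries 3793 ± 1434 TPM (SD, n = 4 for both). The gap of 0.99 on the log2 scale did not pass (limma adjusted p = 0.168). The level was 16476 ± 2721 TPM in Petiole and 14398 ± 2878 in Stolon.

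Among the 1742 of 18727 tested transcripts that met the same conditions in the other direction, Pis14142.t1 fell most on the log2 scale. It had 34.0, 11.02, 9.60 and 10.2 TPM in Stem, against 4389, 10787 and 12603 TPM as lowest, median and highest in the blade. The sixth most abundant transcript of the blade was thus at a low level in all Stem libraries, and Stem replicate 1 was well above the other 3. The mean was 16.2 ± 11.9 TPM in Stem (SD, n = 4) and 9841 ± 2754 in the blade (n = 8). The change on the log2 scale was -9.30 (SE 0.30, limma adjusted p = 2.6e-14), or -9.77 after rescaling. Petiole had 72.6 ± 14.96 TPM and Stolon 55.1 ± 7.86, so this transcript was low outside the blade in general. Basal stood at 10259 ± 1606 TPM and Apical at 9423 ± 3827 TPM (SD, n = 4 for both), a gap of 0.22 on the log2 scale that did not pass (limma adjusted p = 0.796).

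Pis14047.t1 lost the most TPM and was the most abundant transcript of the blade. Its values were 4887, 4284, 5035 and 3869 TPM in Stem, and 34487, 41923 and 44820 TPM as lowest, median and highest in the blade. Both groups were tight, with a wide gap between them. It averaged 4519 ± 541 TPM in Stem (SD, n = 4) and 40726 ± 3628 in the blade (n = 8), the blade mean being 9.01 times the Stem mean. On the log2 scale the change was -3.17 (SE 0.19, limma adjusted p = 3.1e-11), or -3.67 after rescaling. Even so it remained the seventh most abundant transcript of the stem, and it stood at 9110 ± 959 TPM in Petiole and 12922 ± 678 in Stolon.

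**Figure D3:**
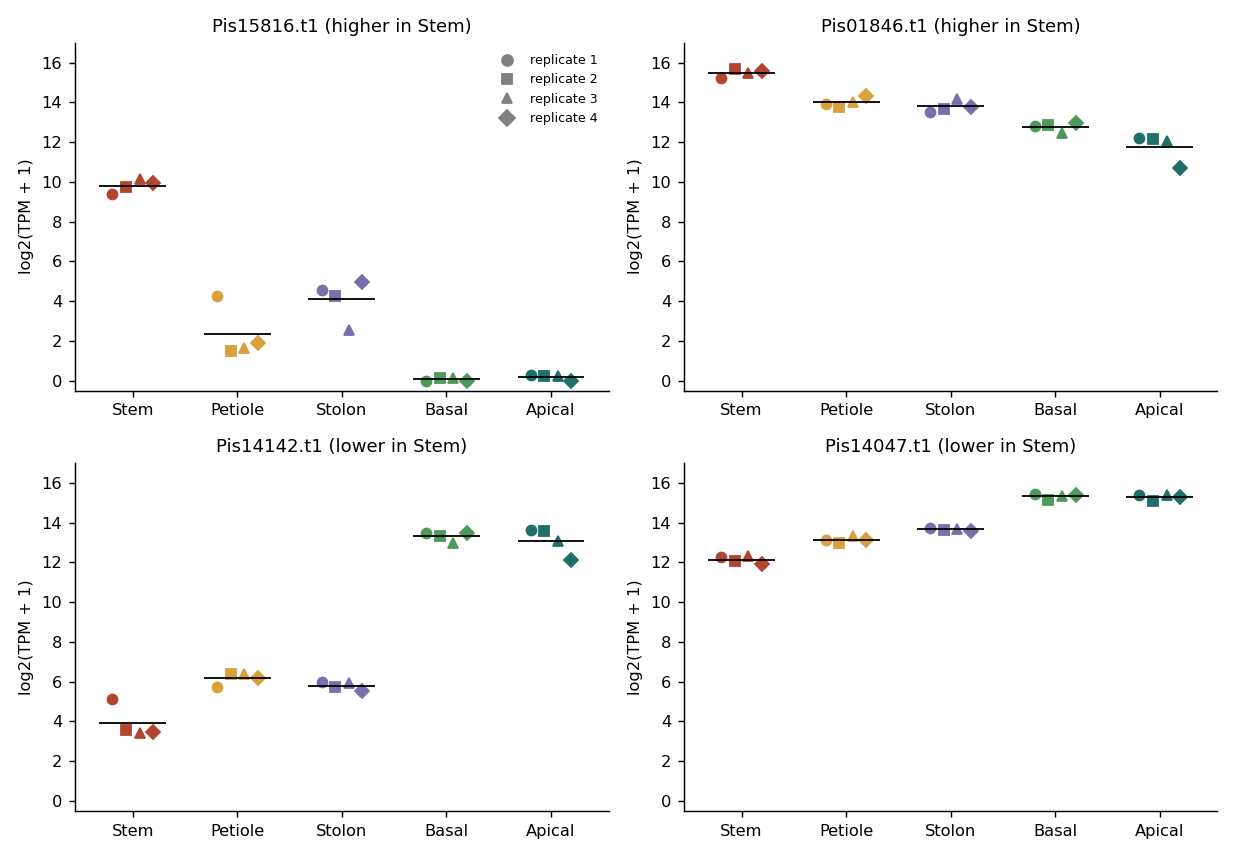
Level in log2(TPM + 1) of 4 transcripts in each Pistia library, with region means as bars and the replicate number as the symbol. Pis15816.t1 and Pis01846.t1 are highest in Stem, Pis14142.t1 and Pis14047.t1 are highest in the blade regions Basal and Apical, and Petiole and Stolon lie between Stem and the blade in all 4 panels.

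The most abundant transcripts of the blade were nearly all lower in the stem. Of the 10 with the highest blade mean, 9 were called lower in Stem, on both scales, and 1 was not called. Together they held 1.65% ± 0.133 of TPM in Stem (SD, n = 4) against 15.03% ± 1.89 in the blade (n = 8). The 10 with the highest Stem mean moved less uniformly. Of these, 6 were called higher, 1 lower and 3 were not called as deposited, and 4 were called higher and 2 lower after rescaling. They held 9.53% ± 0.792 of TPM in Stem against 7.57% ± 0.711 in the blade, and none ranked below 107 in the blade. Both lists were chosen by abundance in these libraries and are given as a description.

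The share of library TPM held by the called transcripts is given by group. The 9652 transcripts called higher as deposited held 66.0% ± 1.56 of TPM in Stem (SD, n = 4) and 24.4% ± 1.37 in the blade (n = 8). The 6927 of them called higher on both scales held 49.5% ± 1.37 in Stem and 13.8% ± 0.975 in the blade. The 2979 called lower held 12.9% ± 0.618 in Stem and 53.6% ± 2.11 in the blade. These shares describe the transcripts by the contrast that chose them and are no test. The 6096 transcripts not called held 21.1% ± 1.13 in Stem and 21.9% ± 0.843 in the blade.

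Petiole and Stolon had intermediate shares. Their values are not in the Stem against blade difference, but they entered the filter and the variances of the fit. With the filter kept and only the Stem and blade libraries fitted, 11930 of 18727 transcripts were called in place of 12631. The transcripts called higher held 49.3% ± 2.07 of TPM in Petiole and 52.2% ± 0.894 in Stolon (SD, n = 4 each), and those called lower held 24.2% ± 1.95 and 23.6% ± 0.874. Among the 3071 transcripts higher by at least 2, the median level on the log2(TPM + 1) scale was 4.50 in Stem, 2.68 in Petiole, 3.25 in Stolon, 1.00 in Basal and 0.63 in Apical. These transcripts together held 22.0% of TPM in Stem, 2.27% to 3.35% in the Basal libraries and 1.35% to 2.02% in the Apical libraries. Every Basal library thus lay above every Apical library for this set. Among the 672 lower by at least 2, the median level was 3.56 in Stem, 4.77 in Petiole, 4.39 in Stolon, 6.24 in Basal and 6.40 in Apical.

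**Figure D4:**
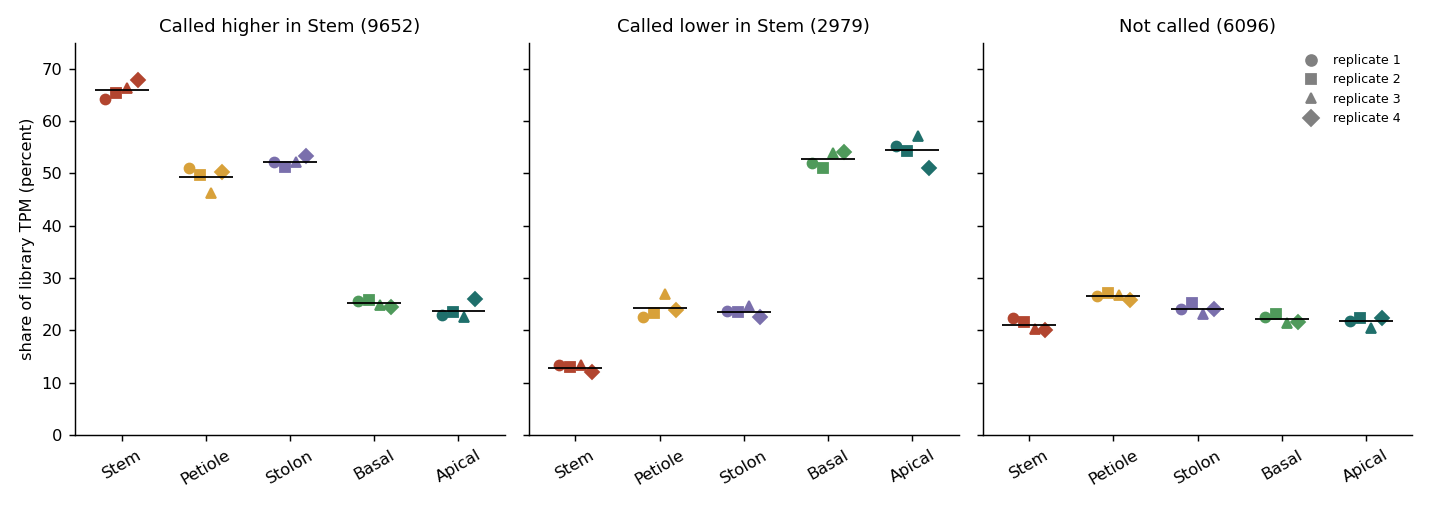
Percent of library TPM held by the transcripts called higher in Stem (left), called lower in Stem (middle) and not called (right) as deposited. Regions are shown with 1 symbol per library and bars for region means. Stem holds 66.0% in the first set and the blade 24.4%, and Petiole and Stolon lie between them in the first 2 panels; the Stem and blade positions there follow from how the sets were chosen.

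The 2 ends of the blade gave similar accounts of the stem. Against Basal, 11853 transcripts were called (63.3%), of which 9223 were higher in Stem (49.2%) and 2630 lower (14%). Rescaling changed this split to 6311 higher (33.7%) and 4414 lower (23.6%). Against Apical, 11949 were called (63.8%), of which 9052 were higher in Stem (48.3%) and 2897 lower (15.5%). Here rescaling gave 6807 higher (36.3%) and 4713 lower (25.2%). These comparisons share the Stem libraries. Between Basal and Apical, 230 were called (1.23%), with 223 higher in Basal (1.19%) and 7 lower (0.0374%). That small count was less stable: it was 402 with the replicate number as a block, 134 when Basal replicate 1 was left out, 152 when Basal replicate 4 was, and 367 when Basal replicate 3 was.

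Stem was also distinct from the other non-blade regions, Petiole and Stolon. Against Petiole, 8295 transcripts were called (44.3%), with 5725 higher in Stem (30.6%) and 2570 lower (13.7%). Rescaled values gave 8155 (43.5%), with 4660 higher (24.9%) and 3495 lower (18.7%). Against Stolon, 7949 were called (42.4%), with 5376 higher in Stem (28.7%) and 2573 lower (13.7%), and rescaled values gave 8003 (42.7%), with 4265 higher (22.8%) and 3738 lower (20%). All 4 named transcripts passed in both comparisons and on both scales, in the same directions as against the blade, with which these comparisons share the Stem libraries. Pis15816.t1 was higher in Stem by 7.47 against Petiole and by 5.71 against Stolon on the log2 scale (limma adjusted p = 1.4e-09 and 4.2e-08), and Pis01846.t1 by 1.50 and 1.70. For Pis14142.t1 the log2 differences were -2.27 against Petiole and -1.90 against Stolon, much smaller than against the blade, and for Pis14047.t1 they were -1.01 and -1.52.

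Some transcripts were listed at 0 throughout one of the groups. A set of 250 transcripts had at least 1 TPM in every Stem library and were listed at 0 in all 8 blade libraries, and 67 of them had at least 10 TPM in every Stem library. The reverse, at least 1 TPM in every blade library and 0 in all Stem libraries, was met by 11 transcripts, of which 1 had at least 10 TPM in every blade library. These conditions are not mirror images, since the blade has 8 libraries and Stem fewer. Whatever their level elsewhere, 354 of the 18727 tested transcripts were listed at 0 in all blade libraries and 160 in all Stem libraries. The 250 had a median of the Stem means of 6.67 TPM and reached 216 TPM. Of them, 19 were listed at 0 in all Petiole libraries, 67 in all Stolon libraries and 11 in both. A listed 0 can be a failed estimate, and no fold is given for these transcripts.

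Few genes had transcripts called in both directions. Taking the part of the identifier before the suffix .t as the gene, the table held 2315 genes with several transcripts. In 2041 of these at least 2 transcripts were tested. All tested transcripts were called higher in 455 genes and lower in 149, and none was called in 452. A further 689 genes had some transcripts called higher and the rest not called, and 248 had some called lower and the rest not called. In 48 genes at least 1 was called higher and at least 1 lower.

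To see whether the proportions within a gene differed, each transcript was expressed as a percent of its gene total, over 1694 genes with at least 5 TPM in each of the 12 libraries. Of 4316 transcripts, 108 changed in share (limma adjusted p under 0.05, 2.5%), 60 higher (1.39%) and 48 lower (1.11%) in Stem, in 56 genes. With the replicate block 84 shares were called. Shares within a gene have a fixed total, so a rise in one transcript brings a fall in others. Transcripts were called in opposite directions in 40 of the 56 genes, which in part follows from this measure. The number of genes with opposite calls was not stable: it was 26 with the block, 26, 25 and 24 when Stem replicate 1, 2 or 3 was left out, and 66 when Apical replicate 4 was. The median change among the called transcripts was 20.8 percentage points. Without Apical replicate 4 the count of changed shares was 180. Reads shared by transcripts of a gene are apportioned by estimate, so shares of similar transcripts are uncertain.

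The largest change in share was in Pis09201, which has 3 transcripts in the table. Pis09201.t1 was listed at 0 in all 4 Stem libraries, and in the blade it took 93.4% of the gene total at the lowest, 98.7% at the median and 100% at the highest. Pis09201.t4 took 73.8%, 72.2%, 64.8% and 69.0% in Stem and at most 6.14% in the blade. Pis09201.t3 took 26.2%, 27.8%, 35.2% and 31.0% in Stem and at most 0.492% in the blade. Blade and stem thus shared almost no transcript of this gene. The share changes were -97.7 percentage points for Pis09201.t1 (SE 1.93, limma adjusted p = 2.3e-10), 67.7 for Pis09201.t4 (adjusted p = 2.4e-08) and 29.99 for Pis09201.t3 (adjusted p = 1.1e-06). With a fixed total of shares, these 3 changes are not independent of each other. The gene total was 38.6 ± 9.53 TPM in Stem (SD, n = 4) and 23.8 ± 14.6 in the blade (n = 8). Totals ran from 27.5 to 50.7 TPM in Stem and from 10.9 to 54.6 in the blade. This overlap came from replicate 2, at 54.6 TPM in Apical and 33.9 in Basal. The other blade libraries lay below every Stem library. In Petiole the total was lower, at 5.07 ± 2.67 TPM, and Pis09201.t1 took 1.98% ± 1.84 of it (SD, n = 4), and in Stolon the gene was below 1 TPM in every library.

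**Figure D5:**
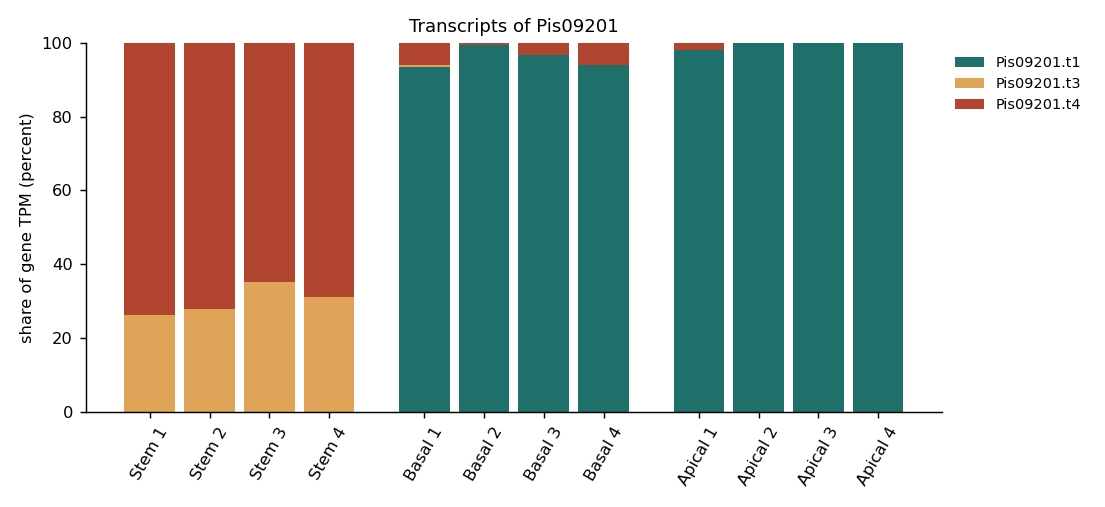
Percent of the gene total of Pis09201 held by each of its 3 transcripts in the 4 Stem, 4 Basal and 4 Apical libraries, as stacked bars that start at 0. Pis09201.t1 fills at least 93.4% of each blade bar and is absent from the Stem bars, where Pis09201.t4 and Pis09201.t3 make up the whole.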

How the data were processed

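The authors deposited TPM per transcript, and the submitters' processing notes list Salmon 1.10.0. For its transcript set, index, build and filter, nothing is given in the sources used here. TPM gives no depth per library. Columns were matched to samples by library name. Transcripts with at least 1 TPM in at least 4 of the 20 Pistia libraries were tested (18727 of 19647) on log2(TPM + 1) in R 4.3.3. A limma 3.58.1 model over all 5 regions used trended empirical Bayes variances, no replicate block, and Benjamini-Hochberg adjustment over all tested. Stem was contrasted with the mean of Basal and Apical. Isoform shares were fitted in the same way over the 12 stem and blade libraries. Library measures were tested by exact permutation in Python 3.11.15. Rescaling factors used the 13820 transcripts above 0 in all 20 libraries.

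Replicate numbers were taken to pair the libraries by correlating deviations from the region mean between Stem and the averaged Basal and Apical libraries. With the same number these correlated at 0.152 to 0.184 in all 4 pairs, above the 0.1 required. For number 4, however, Stem and Basal alone correlated at 0.038, and Basal and Apical at -0.023. Basal replicate 4 taken alone was therefore not paired by this measure. The labels do not state what a number shares. Named transcripts are, in each direction, the one with the largest log2 difference and the one with the largest difference in TPM, among called transcripts without overlap and with at least 10 TPM in the higher group. One gene with opposite changes in share was named by its size. The libraries, tests and naming rules were chosen with earlier results of these data known. In simulated data with 200 changed transcripts for Stem against blade, 74% of those changed by 1 on the log2 scale and 92% of those changed by 2 were recovered, with 8 false among 174 calls. There, few transcripts changed and none of these had a blade level near the floor. The noise was independent between libraries, without pairing or an outlying library. These rates therefore need not hold for the real libraries. Alternatives were the pseudocount, filter, scale, block, libraries fitted, gene totals and leaving out each library.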

Additional observations from a re-analysis of the deposited data

Results flagged for a closer look

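Apical replicate 4 lay far from the other 3 Apical libraries in several measures. Its 10 most abundant transcripts held 11.9% of TPM, against 16.2% to 16.9% in the others, and it needed 510 transcripts to reach 50% of TPM, against 297 to 312. Its mean correlation with its own region was 0.888. It was listed at 0 TPM for Pis15816.t1, against 0.198 to 0.205 TPM in the others, and had 1657 TPM of Pis01846.t1, against 4279 to 4660. Stem replicate 1 had 34.0 TPM of Pis14142.t1, against 9.60 to 11.02 in the other Stem libraries. Within Pis09201, Apical replicate 1 had 98.0% of Pis09201.t1 and 2.03% of Pis09201.t4, the other Apical libraries having at least 99.9% and at most 0.137%. Basal replicate 1 had 0.492% of Pis09201.t3, which was listed at 0 in the other Basal libraries. In all, 9 of 36 groups of 4 libraries were marked because 1 library's gap to its nearest neighbour took up most of the group's range, where chance marks about 1 in 20. The measures of 1 library are not independent of each other.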

How the results depend on the processing

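The count of transcripts called for Stem against blade lay between 10797 and 13520 over 33 alternatives, all within 1.5 times of 12631, and was 13101 with the replicate block. The same held for Stem against Basal, Apical, Petiole and Stolon. The settings did not all test the same number. For Stem against blade, the lowest count was of 14990 transcripts tested with the filter of 5 TPM, in place of 18727. With totals summed per gene, 11661 of 15794 genes were called. Both are larger shares of those tested than in the main fit. The split into higher and lower calls moved with rescaling, as given above. The 4 named transcripts kept their direction and their call in each of 32 alternatives, the highest limma adjusted p being 4.9e-05, for Pis01846.t1. They were chosen for large differences without overlap, so this follows largely from the choice. Basal against Apical was less stable: from 230 it went to 376 with a pseudocount of 0.1, 402 with the block, 94 with the stem and blade libraries alone, 132 with the block in that fit, 472 with rescaling and the block, 91 with rescaling over those 12 libraries, and 134 to 367 with 1 library left out. The cause was not tested.

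Within the 4 replicate pairs (the replicate block), the excess of Stem over blade in transcripts at 1 TPM was again 2465, the difference in the share of the 10 most abundant -5.85 percentage points and that in transcripts reaching 50% of TPM 477.8, but with an exact permutation p of 0.125, the smallest that 4 pairs allow. With 1 library left out these differences ranged from 2383 to 2493, from -6.35 to -5.53 and from 461 to 505. The share of the single most abundant transcript was higher in Stem, by 0.576 percentage points (exact permutation p = 0.0768), the reverse of the 10 most abundant. Changed isoform shares numbered 108, and 79 to 180 with 1 library left out, the highest without Apical replicate 4. Combined rescaling and block, rescaling over 12 libraries, leaving out Petiole and Stolon libraries, and the alternatives for the other comparisons were added after seeing the data. TPM gives no depth, so no limit of detection can be set.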
